A study of Drosophila melanogaster with 2 samples.

Results

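Cytosine-adenine runs, written CA runs here, are uninterrupted stretches of at least 8 bases in which C and A alternate on either DNA strand, so that the same run reads as T and G on the other strand. They were looked for in the 200 bp centred on each summit of the authors' thresholded dm6 peak list for CG12768, a *Drosophila melanogaster* protein that carries an Adf1-type MADF domain. Of 6066 peaks, 522 held a CA run (8.61%, 95% Wilson interval 7.93 to 9.34), and these are called CA peaks. The membership rule used the genome sequence at the summits and no signal value. Chromatin immunoprecipitation with sequencing had been done on whole adult males of a transgenic line that stably expresses CG12768 fused to GFP at the C-terminal end, with an antibody against GFP, on DNA sonicated to 200 to 800 bp. There were 2 biological replicates of this 1 group, all animals carried the transgene, the age of the flies is unknown, and no mock immunoprecipitation or control library was analysed here. The labels do not give the promoter that drives the fusion or how many animals were pooled, and in whole flies the tissue behind a peak cannot be told. Sequencing depth is unknown because only peaks, and no counts of reads, were deposited in these lists, and each interval reflects counting error over peaks alone.

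Runs of CA are among the most common dinucleotide microsatellites of animal genomes, and their length changes easily when DNA polymerase slips during replication. MADF proteins are a large insect family of factors named for the Myb-like DNA-binding domain of Adf1, and Adf1 itself is a transcription activator first studied at the Adh promoter. In *Drosophila* the zinc finger protein Combgap is known to bind GT-rich sequence of this kind, and GAGA factor binds the related GA runs, both often at promoters and at elements bound by Polycomb group proteins.

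The runs that set these peaks apart are shown first, on the plus strand of dm6 (sequence from RefSeq, Release 6), 5′ to 3′, with the CA runs in capitals. The first 5 stretches come from CA peaks of high signal and show the run beside other repeats. Each spans the summit, which is not marked. The stretch at the promoter of Hsp27, which encodes a small heat shock protein, spans chr3L:9383863-9384026. That at Syp, which encodes an RNA-binding protein, spans chr3R:20778584-20778703 and carries a GA stretch behind the run. That at Cat, the catalase gene, spans chr3L:18822859-18822978 and holds 2 runs parted by a single base. That at TRAM, which encodes a membrane protein of the secretory pathway, spans chrX:935305-935447. The stretch in an intron of spen, which encodes an RNA-binding co-repressor, spans chr2L:166609-166750.
Hsp27: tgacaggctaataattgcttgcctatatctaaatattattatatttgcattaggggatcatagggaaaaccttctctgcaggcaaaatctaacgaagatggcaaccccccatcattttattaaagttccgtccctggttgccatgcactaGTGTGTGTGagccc
Syp: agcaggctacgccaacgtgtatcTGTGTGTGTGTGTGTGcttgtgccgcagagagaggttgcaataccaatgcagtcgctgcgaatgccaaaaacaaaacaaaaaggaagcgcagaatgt
Cat: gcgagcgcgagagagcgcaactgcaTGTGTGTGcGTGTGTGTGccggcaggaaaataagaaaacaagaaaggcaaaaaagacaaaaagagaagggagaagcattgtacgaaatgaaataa
TRAM: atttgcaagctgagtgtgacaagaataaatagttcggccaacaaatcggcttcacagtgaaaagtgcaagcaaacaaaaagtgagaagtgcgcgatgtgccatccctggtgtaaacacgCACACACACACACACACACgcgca
spen: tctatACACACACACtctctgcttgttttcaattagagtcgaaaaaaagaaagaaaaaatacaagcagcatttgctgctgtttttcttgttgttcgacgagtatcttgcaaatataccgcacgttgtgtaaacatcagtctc

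The next 5 show the long end of the range and an intronic peak in which the CA run abuts a GA repeat. The intronic stretch is from bun, a gene of the TSC-22 family, at chr2L:12529762-12529881. The longest run of all CA peaks was at CG8034 (chrX:19298504-19298584), followed by that at mamo, which encodes a BTB zinc finger protein (chrX:13986592-13986649). The others are from an intron of Eip74EF, the ecdysone-induced Ets factor gene (chr3L:17572096-17572149), and from the promoter of dpp, the gene of a BMP ligand (chr2L:2428043-2428094).
bun: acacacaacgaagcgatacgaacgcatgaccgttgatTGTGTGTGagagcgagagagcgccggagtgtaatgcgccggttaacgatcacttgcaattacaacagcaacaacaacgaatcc
CG8034: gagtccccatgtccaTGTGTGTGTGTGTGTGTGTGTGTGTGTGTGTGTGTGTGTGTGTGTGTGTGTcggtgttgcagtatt
mamo: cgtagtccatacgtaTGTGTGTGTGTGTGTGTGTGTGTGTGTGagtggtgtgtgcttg
Eip74EF: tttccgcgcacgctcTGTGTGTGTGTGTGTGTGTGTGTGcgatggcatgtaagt
dpp: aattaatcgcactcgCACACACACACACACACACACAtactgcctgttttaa

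Short runs prevailed. The longest run in the window was exactly 8 bases in 169 CA peaks and 9 bases in 104, with a median of 9. It was at least 12 bases in 133 peaks, at least 16 in 39 and at least 20 in 13, up to the 51 bases at CG8034. More than 1 run was present in 84 peaks, and 8 peaks held 3.

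CA runs were more frequent at summits than in the genome at large. Cutting the arms into 668175 tiles of 200 bp gave a run in 4.65% of them, and the 200 bp centred on protein-coding transcript starts held one in 4.70% (904 of 19252). Each replicate's own list gave a share above these. Among the 6066 peaks of highest signal, 644 held a run in replicate 1 (10.6%, interval 9.87 to 11.4) and 454 in replicate 2 (7.48%, interval 6.85 to 8.17). The thresholded list lay between the replicates, whose intervals did not overlap. The excess over tiles was not particular to the thresholded peaks. The authors' list pooled from both replicates also contains background, per the labels. Of its 23934 peaks outside the thresholded list, 8.26% held a run (7.92 to 8.62). At pooled ranks 25001 to 30000 the share was still 7.76%.

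The rise in CA runs was broad, and in the thresholded list it was not highest at the summit. In the thresholded list 9.36% of windows centred 200 bp to the left and 9.76% of those 200 bp to the right held a run, against 8.61% at the summit. At 2000 bp on the left and right the shares were 4.47% and 4.73%, near that of tiles. The replicates differed in the shape at the centre. In replicate 1 the share at the summit, 10.6%, stood beside 10.1% and 9.61% at 200 bp, whereas in replicate 2 the 7.48% at the summit was lower than the 9.15% and 8.98% beside it. GA runs, defined the same way with G and A, were held by 5.65% of thresholded summit windows (343 of 6066), against 5.32% and 4.93% at 200 bp to the left and right and 1.48% of tiles. The replicates differed here as well. In replicate 1 the GA share was 6.64% at the summit and 5.56% and 5.21% at 200 bp, and in replicate 2 it was 4.55% at the summit and 5.11% and 4.86% at 200 bp.

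**Figure D1:**
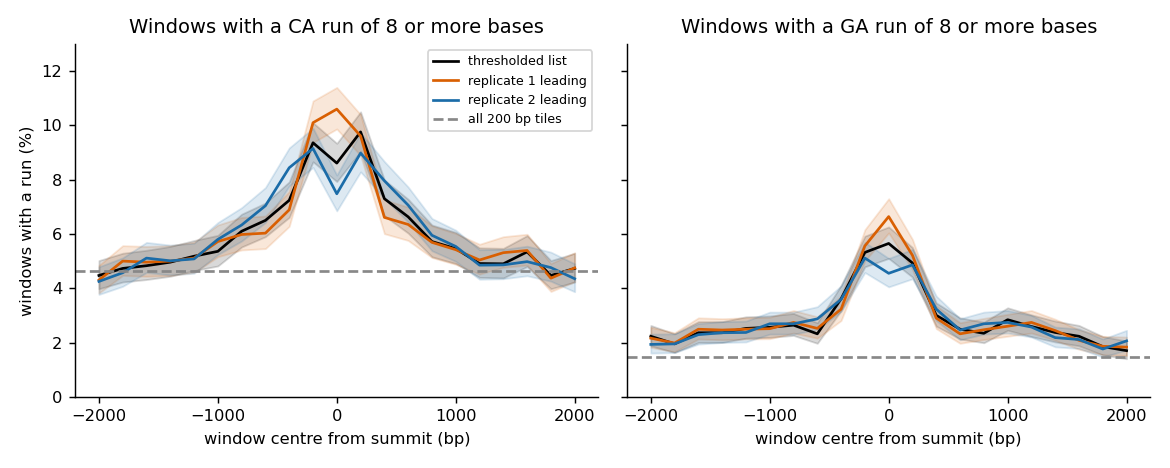
Share of 200 bp windows (y axis, percent) that hold a CA run (left) or a GA run (right) against the distance of the window's centre from the peak summit (x axis, bp), with lines for the thresholded list and for the 6066 leading peaks of each replicate, bands for 95% Wilson intervals and a dashed line for all genomic tiles. The CA share of the thresholded list is 8.61% at the summit and 9.36% and 9.76% at 200 bp to the left and right, and the GA share at the summit is 5.65%. In replicate 2 both kinds of run are less frequent at the summit than at 200 bp (7.48% for CA and 4.55% for GA).

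The density of run centres was also lower at the very centre. Within 50 bp of the thresholded summits there were 0.452 CA runs per kb, against 0.605 per kb at 50 to 150 bp, 0.538 at 150 to 250 bp and 0.289 at 1000 to 2000 bp. The density within 50 bp and at 50 to 150 bp was 0.59 and 0.717 per kb in replicate 1 and 0.415 and 0.537 in replicate 2, so that both had fewer runs nearest the summit. Outside promoters the 2 densities were 0.455 and 0.727 per kb, and at promoters 0.449 and 0.507. GA runs showed a dip too, with 0.262 and 0.422 per kb. In the CA peaks themselves the centre of the longest run lay within 25 bp of the summit in 110 and over 50 bp away in 288, with a median distance of 55 bp.

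GC content went with the presence of a run. The 200 bp of CA peaks had a median GC of 46.5% (quartiles 42.5 and 51), against 40.5% in the other peaks and 42% in tiles, and with the runs themselves left out the medians were 46.4% and 40.5%. Among thresholded peaks under 35% GC, 1.73% held a CA run, no more than the 2.14% of tiles of that GC outside coding exons. The share was 4.79% at 35 to 40% GC, against 4.41% of such tiles. It was 9.74% against 6.87% at 40 to 45%, 14.3% (12.4 to 16.5) against 7.99% at 45 to 50%, and 15.1% (13.1 to 17.4) against 6.34% at 50% or more. The excess of peaks over tiles was thus found in the GC-richer peaks.

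Within these GC bins the replicates lay closer together than in their whole lists. The leading peaks had a median GC of 43.5% in replicate 1 and 38.5% in replicate 2. From 45 to 50% GC, 15.3% of replicate 1's leading peaks and 13.8% of replicate 2's held a CA run, and at 50% or more the shares were 15.1% and 15.9%. At 35 to 40% they were 6.92% and 4.83%. In both replicates each bin from 40% up lay above the tiles. Promoter peaks with 45 to 50% GC held a run in 15.8% (13 to 19), against 7.53% of promoter tiles, and intron peaks in 11.9% (9.04 to 15.4), against 8.84% of intron tiles.

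**Figure D2:**
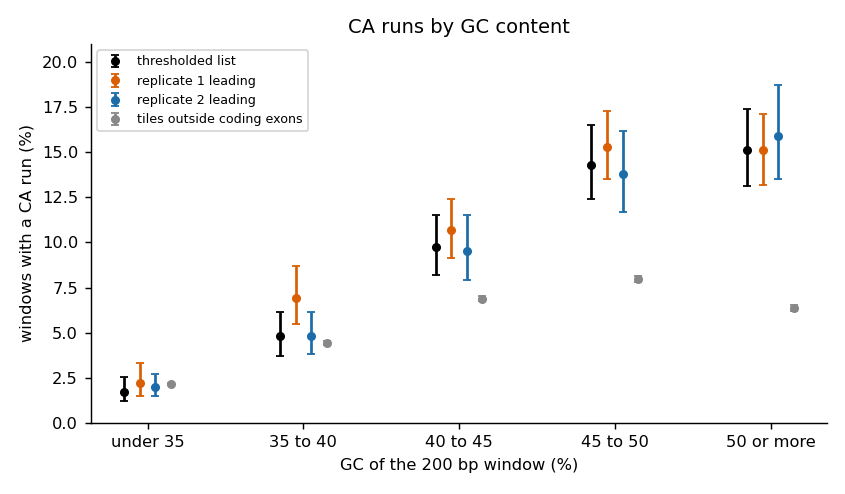
Share of 200 bp windows with a CA run (y axis, percent) by GC content of the window (x axis, percent), for the thresholded list, the 6066 leading peaks of each replicate and genomic tiles outside coding exons; points are shares and bars 95% Wilson intervals. Under 35% GC the peaks are near the tiles at 1.73% and 2.14%, and at 45 to 50% GC the thresholded list stands at 14.3% and the tiles at 7.99%.

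The excess rose from runs of 8 to 9 bases to those of 10 to 11 and was lowest at 16 bases or more, in the thresholded list and both replicates. Peaks whose longest run was 8 to 9 bases were 1.8 times as frequent among thresholded peaks as among tiles, and the ratio was 2.55 at 10 to 11 bases, 2.32 at 12 to 13 and 2.01 at 14 to 15. It was 1.11 at 16 to 19 bases (26 peaks) and 0.697 at 20 or more (13 peaks). Replicate 1 gave higher ratios than replicate 2 at every length, with 2.1 and 1.54 at 8 to 9 bases and 3.32 and 2.15 at 10 to 11. At 20 or more bases it gave 1.29 from 24 peaks and replicate 2 gave 0.536 from 10, so the direction at this length differed between the replicates. How well reads map to long runs was not tested.

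**Figure D3:**
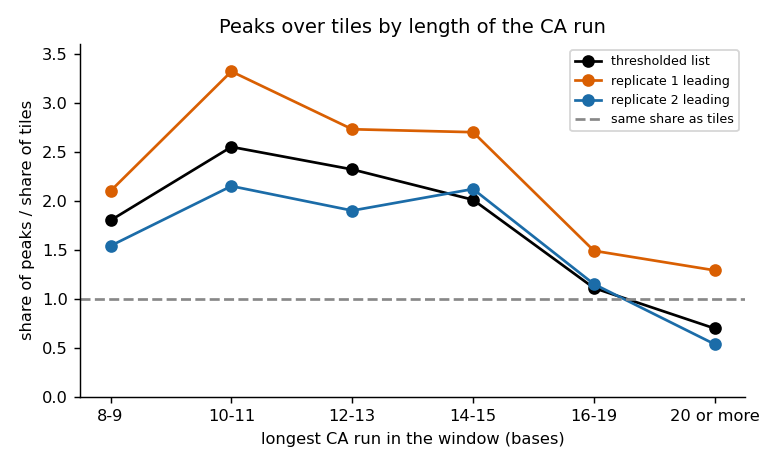
Share of peaks divided by the share of genomic tiles (y axis, a ratio) by length of the longest CA run in the 200 bp window (x axis, bases), for the thresholded list and the 6066 leading peaks of each replicate; the dashed line marks equal shares. The thresholded list is highest at 10 to 11 bases, at 2.55, and falls to 1.11 at 16 to 19 bases.

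CA peaks lay at promoters about as often as other peaks. A summit counts as a promoter summit when a protein-coding transcript of the Ensembl annotation starts no more than 500 bp away. This held for 276 CA peaks (52.9%, 48.6 to 57.1), where 55.4% of all thresholded peaks and 55.7% of the other peaks were at promoters. In the replicates 55% and 49.6% of CA peaks were promoter peaks. The remaining summits were assigned in a fixed order of annotation, and introns held 171 CA summits (32.8%), where 32.6% of all thresholded summits and 32.6% of the other peaks' were intronic. Intergenic sequence held 43 (8.24%), other exons 9, 3′ UTRs 5 and coding exons 2. A distance of over 2000 bp from every start was found for 133 CA peaks (25.5%, 21.9 to 29.4) and for 22.4% of the others.

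Summits in 5′ UTRs beyond the promoter distance were more frequent among CA peaks than among other peaks. There were 16 among CA peaks (3.07%, 1.9 to 4.92) and 50 among the other 5544 peaks (0.902%, 0.685 to 1.19). Peaks with a GA run had 15 of 343 there (4.37%, 2.67 to 7.09), so a raised share in 5′ UTRs was not limited to CA peaks. Put the other way, 24.2% of the 66 thresholded summits in 5′ UTRs held a CA run (15.5 to 35.8), against 7.7% of 5′ UTR tiles. The replicates gave 20.8% and 24.6%. From 40 to 45% GC the shares in 5′ UTRs were 4.27% (1.84 to 9.62) of CA peaks and 0.554% (0.254 to 1.2) of others, from 5 and 6 peaks. They were 3.75% and 1.15% from 45 to 50% GC and 1.84% and 1.31% at 50% or more, both with intervals that overlapped.

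The strongest of the 16 was at dop, a kinase gene (signal 441). The next were at skd, which encodes a Mediator subunit, with 423, and at JIL-1, the gene of a histone H3 kinase, with 398. The peak at JIL-1 (chr3L:11092317-11092529) had a signal of 207 in replicate 1 and 203 in replicate 2, and a run of 15 bases. The others were at spen, drn, wrd, Pp2C1, crol, Nup153, E2f1, Eaf, CG32767, SCAP, sif, Crtc and sina, with signals from 293 down to 143.

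At promoters the CA summits were spread evenly over the start. Of 276, 140 lay upstream of the nearest start (50.7%, 44.9 to 56.6), against 67.1% (65.4 to 68.7) of other promoter summits, and the median positions were -3 and -58 bp. The replicates gave 44.6% against 57.9% and 52.9% against 75.9%. Promoter peaks with starts of at least 2 genes within reach, as at divergent gene pairs, made up 15.6% of CA promoter peaks and 31.1% of others. The contrasts were read again between peaks of like GC. From 45 to 50% GC, 50.6% of CA and 44% of other promoter summits were upstream, and 14.6% and 15.2% reached the starts of 2 or more genes. From 40 to 45% GC the upstream shares were 45.9% (34 to 58.3) and 59.2% (55.1 to 63.2), with overlapping intervals, and the shares that reached the starts of 2 or more genes were 24.6% and 25%. At 50% GC or more the upstream shares were 49.4% and 53.9%, and 6.74% and 10.6% reached 2 or more genes. The upstream shares thus differed in the same direction as over all peaks in the first and last of these bins by GC and in the opposite direction from 45 to 50%, while the shares at 2 or more genes had overlapping intervals in each.

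The runs had a preferred strand downstream of the start. In CA promoter peaks the longest run lay downstream in 153, and in 107 of these (69.9%, 62.3 to 76.6) the T and G were on the coding strand. Upstream this held for 52.8% of 123. The replicates gave 69.7% and 69.6% downstream. All CA runs of the genome within 600 bp of a start showed the same, with 67.3% downstream and 53.6% upstream. With each side of the start taken as a whole, the peaks thus did not depart from the genome in the strand of the run. Upstream, finer bins went opposite ways. From 200 to 100 bp upstream 25 of 37 peaks had C and A on the coding strand, against 47.7% of the genome's runs. In the 100 bp next to the start 14 of 48 did, against 38.9%. Genome-wide the runs were most numerous 200 to 300 bp downstream of starts (832 runs, against 604 and 497 in the neighbouring 100 bp), and 44 CA promoter peaks had their run there. In CA promoter peaks the run lay most often in the 100 bp upstream of the start (48 peaks). It lay downstream in 55.4% of them, against 63.2% of the genome's runs. By the membership rule a peak's run was sought only in the 200 bp centred on its summit. The run's place relative to the start was thus tied to that of the summit, which the genome's runs were not. The comparison of places therefore cannot separate a preference of the runs from the placement of the summits.

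Inside gene bodies outside promoters the strand share of the peaks was above that of all such runs of the genome. The comparison was not matched for distance from the start, and it sets the longest run of each peak against every run of the genome. Genome-wide, 36% of runs 500 to 600 bp downstream of starts had C and A on the coding strand, so T and G prevailed there too. Whether the difference below remains at like distances was not tested. There 117 of 192 CA peaks had T and G on the coding strand of the host gene (60.9%, 53.9 to 67.6), against 48.7% (48 to 49.4) of the 20955 runs in gene bodies over 500 bp from a start. The shares were 60.5% and 57.8% for the peaks also leading in replicate 1 and in replicate 2, the second with an interval of 49.9 to 65.3.

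Genes with a promoter peak of any kind more often had CA runs in reach. A run lay within 500 bp of a start in 33.7% of 3613 genes with a thresholded promoter peak, against 17.9% of 10332 genes without. Between 200 and 300 bp downstream of the start the shares were 7.25% and 3.09%. Genes with more annotated starts have more sequence in reach, and the part of this in the difference was not tested.

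The chromosomes took nearly even shares. CA peaks made up 9.23% of peaks on 2L, 8.75% on 2R, 8.68% on 3L and 7.53% on 3R, and 2 of 25 on chromosome 4. On X, 69 of 716 peaks held a run (9.64%, 7.69 to 12), against 8.47% on the large autosome arms. Replicate 1 gave 13.1% on X and 10.3% on these arms, and replicate 2 gave 8.64% and 7.33%. The X is rich in such runs, with 6.42% of tiles against 4.31%, so that peaks exceeded tiles by less on X than on the autosomes.

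The signal of CA peaks, the authors' own value for each peak, was like that of other peaks. Its median was 219 (quartiles 169 and 306, range 142 to 1872) against 223, a ratio of 0.981. The ratio was 1.01 in replicate 1's leading list and 0.892 in replicate 2's. Of the 100 strongest thresholded peaks 4 were CA peaks, and of the 500 strongest 37 (7.4%, 5.42 to 10). At ranks 501 to 1000 the share was 6.4% (4.57 to 8.9), where 8.61% of all thresholded peaks were CA peaks. Peaks with runs of 8 to 9, 10 to 13 and 14 or more bases had median signals of 222, 221 and 212, so the signal hardly moved with the run's length.

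In the following values the signal and rank in a replicate are those of its strongest peak that overlaps the interval, which need not share the summit. A common scale for the replicates is not stated, so they are compared by rank. The strongest CA peak was the intronic peak in spen, 7659 bp from the start (chr2L:166315-167033). It had a thresholded signal of 1872, and 1232 in replicate 1 (rank 7) and 637 in replicate 2 (rank 113). The strongest at a promoter was that of Hsp27 (chr3L:9383755-9384126), with its summit 140 bp upstream of the start. Its signal was 1506, with 692 in replicate 1 and 813 in replicate 2, at ranks 60 and 67. The peak was thus placed alike by the replicates, whereas that of spen ranked higher in replicate 1.

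The Syp promoter peak had 1329.5, with 834 in replicate 1 (rank 29) and 494 in replicate 2 (rank 203). That of fok had 1210.3, with 564 and 654. At Cat the thresholded signal was 1088, and replicate 1 gave 836 at rank 27, while in replicate 2 the peak held rank 785. The shared promoter of RpS27, a ribosomal protein gene, and Nup37, a nucleoporin gene, had 1083, with 533 and 576. Of these 4 promoters, fok (ranks 106 and 109) and RpS27 (122 and 138) were placed alike, and Syp and Cat were placed lower in replicate 2.

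The next promoter peak, at CG13631 (962), was the reverse, with 299 in replicate 1 (rank 517) and 661 in replicate 2 (rank 107). The others of the 15 strongest were at sug, which encodes a sugar-responsive zinc finger protein (915), at Rab5, the gene of an early endosome GTPase (868), at CG30159 and the tetraspanin gene Tsp42Ea (801) and at TRAM (766). They went on with CG3164 (761), CG32772 (748), CG11151 (732), the sideroflexin gene Sfxn1-3 (726) and the shared promoter of HPS1 and Ciao1 (709), the second an iron-sulphur assembly gene. TRAM had 303 in replicate 1 and 463 in replicate 2, and CG3164 had 570.1 and 211. The weakest CA promoter peak was that of PhKgamma, a phosphorylase kinase gene, with 142.

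Away from starts the leading peaks after spen were at CG33798 (775), spin, a lysosomal transporter gene (692), bun (666) and Pdk, which encodes pyruvate dehydrogenase kinase (623). Each ranked better in replicate 1, as at bun with 498 (rank 149) in replicate 1 and 172 (rank 1547) in replicate 2, and at Pdk with 423 (rank 220) and 206 (rank 1130). The peaks with the longest runs had thresholded signals at or below the median of all CA peaks, 219. That of CG8034 had 157, mamo 219, Tep4, a gene of a thioester-containing immune protein, 147, AMPdeam 169, Eip74EF 179 and dpp 204. At dpp the replicates ranked the peak 4322 and 3753 and at Tep4 they gave 96.8 and 75, while at mamo they gave 172 and 44.1, ranks 1690 and 11043. The interval at CG8034 overlapped stronger peaks, with 199 (rank 1214) in replicate 1 and 306 (rank 532) in replicate 2.

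CA peaks were found again in both replicates about as often as others. A CA peak shared at least 1 base with a leading peak of both replicates in 372 cases (71.3%, 67.2 to 75), where 67.7% of all thresholded peaks and 67.3% of the others did. The replicates were not alike, however. Replicate 1's leading peaks matched 475 CA peaks (91%) and replicate 2's 416 (79.7%), against 83.6% and 83.2% of other peaks. A match in replicate 1 alone was found for 103 CA peaks (19.7%), in replicate 2 alone for 44 (8.43%) and in neither for 3. At any rank, 511 CA peaks were matched in both lists of 30000.

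Their rank was better in replicate 1 for 363 of 511 (71%), against 48.1% of other peaks, and the median ranks were 2271 and 3467. GA peaks did the same, with 73.5% better placed in replicate 1. GC content moved with this. From 45 to 50% GC, 74.7% of CA peaks (67.3 to 80.9) and 72.7% of other peaks (69.8 to 75.5) ranked better in replicate 1. From 40 to 45% GC 70.1% (61.3 to 77.6) and 58.1% (55.1 to 61) did, with intervals that did not overlap. At 50% GC or more the shares were 81.9% and 75.4%, with overlapping intervals. Across the 511 CA peaks Spearman's rho of the replicates' ranks was 0.494, a description over peaks selected by their pooled signal.

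**Figure D4:**
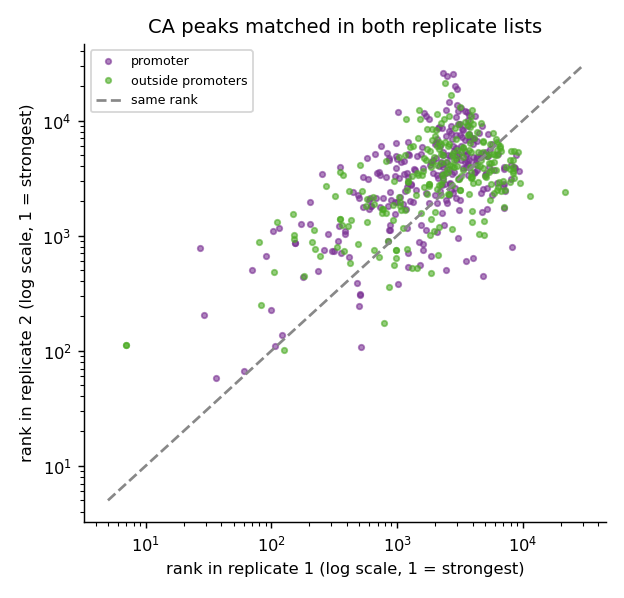
Rank of the overlapping peak in replicate 1 (x axis) and replicate 2 (y axis), both on a log scale with 1 the strongest, for the 511 CA peaks matched in both lists; colours mark promoter peaks and peaks outside promoters, and the dashed line is equal rank. Most points (363) lie above the line, that is with a better rank in replicate 1.

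The peaks that a replicate did not share showed the largest difference in CA content. Of replicate 1's leading peaks that overlapped a leading peak of replicate 2, 9.95% held a CA run, and of the 223 in no peak of the other list 17.5% did (39 peaks, 13.1 to 23). In replicate 2 the corresponding shares were 8.86% and 2.66% (7 of 263, 1.3 to 5.39). The median GC was 42.5% and 45.5% in replicate 1 and 40.5% and 35% in replicate 2. The ranking within a list went the same way, since 9.6% of replicate 1's 500 strongest peaks held a run and 3.4% of replicate 2's, which rose to 8.57% among its peaks ranked 4001 to 6066. Median GC in those 3 groups was 41.5%, 34% and 40.5%.

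Other sequence at the summits differed between CA and other peaks. With the CA runs masked, each motif was searched on both strands. GAGAG, the core of the GAGA factor site, which also lies within GA runs, was present in 45.2% of CA peaks (41 to 49.5), in 29.1% of others and in 21.4% of tiles. CGATA, which lies within the DRE and the BEAF-32 site, was present in 18.6% of CA peaks (15.5 to 22.1), 31.5% of others and 21.3% of tiles. The whole DRE, TATCGATA, was found in 0.958% and 2.9%, with 0.558% of tiles. GGTCACAC, the core of Motif 1, was found in 0.575% and 1.77%, with 0.416% of tiles. Its last letters can be part of a CA run, and masking hides such copies.

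The motif shares were also read within bins of GC. The DRE and the core of Motif 1 were less frequent in CA peaks in each bin from 40% up, but with overlapping intervals. From 40 to 45% GC, GAGAG was in 42.7% of CA peaks (34.1 to 51.8) and 30.1% of others (27.4 to 32.9), and CGATA in 26.5% and 34.6%, the second pair with overlapping intervals. From 45 to 50% GC, GAGAG was in 48.8% of CA peaks (41.1 to 56.4) and 35.9% of others (33 to 39), and CGATA in 15.6% (10.8 to 22) and 30.8% (28 to 33.8). At 50% GC or more CGATA was in 14.1% and 28.7%, with intervals that did not overlap, and GAGAG in 52.8% and 47.6%, with intervals that did. TATAAA was in 13.6% of CA peaks and 27.7% of others over all peaks, and in 13.7% (8.6 to 21.1) and 22.9% (20.5 to 25.5) from 40 to 45% GC. It was in 11.9% and 13.9% from 45 to 50% GC and in 6.13% and 5.68% at 50% or more. Over all peaks the E-box CACGTG was in 3.26% and 2.92% and CAGCTG in 10.3% and 11.1%, and their intervals overlapped in each of these bins too. A tract of 8 A was in 12.1% and 11.8% over all peaks, but in 13.1% of CA peaks (8.75 to 19.2) and 6.58% of others (5.18 to 8.33) from 45 to 50% GC. In the bins of lower and higher GC beside it the shares were 15.4% and 10.4%, and 6.13% and 3.06%, with overlapping intervals. Over all peaks TATATATA was in 1.34% and 3.07%, where tiles held it in 2.96%. From 40 to 45% GC it was in 2.56% of CA peaks and 2.21% of others, and the intervals overlapped in each bin from 40% up.

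GA runs crossed with CA runs. Of all thresholded peaks 5.65% held a GA run, while 54 CA peaks did (10.3%, 8.02 to 13.3) against 5.21% (4.66 to 5.83) of the others. Genomic tiles with a CA run also held GA runs more often than those without, at 3.4% and 1.39%. At 45 to 50% GC 12.5% of CA peaks and 8.36% of others held a GA run, with overlapping intervals, as at 40 to 45% GC (9.4% and 5.35%) and at 50% or more (12.3% and 10%). Syp, bun, Pdk and CG8034 are among the named peaks with both.

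Each CA peak was given to the genes with a start within 500 bp, otherwise to the gene whose body held it, otherwise to the gene of the nearest start. This gave 483 target genes, 3.46% of 13945 protein-coding genes and 11.5% of the 4208 genes given any thresholded peak. A CA promoter peak stood at 311 genes, 192 CA peaks were given to a host gene and 54 to the nearest start. Most targets had a CA peak only once, but 56 had at least 2 and 18 at least 3.

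Eip74EF had the most, with 7 CA peaks among its 18 thresholded peaks. Its strongest (chr3L:17612108-17612551) lay in an intron with a signal of 412, with 271 in replicate 1 and 149.6 in replicate 2. The second had 345, with 178 and 171. The only promoter peak of the 7 had 252, with 136 and 116. The remaining 4 had thresholded signals from 249 down to 179, the last at the run of 24 bases. By rank 6 of the 7 stood better in replicate 1, by little in the second (1551 and 1559), and the last stood better in replicate 2 (5340 and 4276).

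Other genes with several CA peaks were spen (4 of 8), tara (4 of 18), Tlk (4 of 15), Glut4EF (4 of 21) and Eip75B, an ecdysone-induced nuclear receptor gene (4 of 21). At 3 CA peaks stood ftz-f1 and mamo (of 7 each), Dad, an inhibitor of BMP signalling (of 8), CycG, a cyclin gene (of 5), Blimp-1 and CG14434 (of 7 each), CG5953 (of 10), simj and ps (of 11 each), psq (of 14), bun (of 15) and Pdp1 (of 19). Long genes with many peaks had more chances to hold a run, and their length was not taken into account.

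Of the 20 gene lists, the ecdysone response genes held CA peaks most often for their peaks. These genes carry the transcriptional cascade started by the moulting hormone. Of 25 genes 8 had a CA peak, and of their 98 thresholded peaks 21 held a run (21.4%), where 8.61% of all thresholded peaks did. Of the 21, 19 overlapped replicate 1's leading peaks and 18 replicate 2's, where 91% and 79.7% of all CA peaks did. Eip93F, a late regulator of metamorphosis, had its CA peak 81 bp upstream of the start, with a signal of 441, 318 in replicate 1 and 127 in replicate 2. Kr-h1, which mediates juvenile hormone action, had 287, with 213 and 85.6. EcR, the ecdysone receptor gene, had 2 of 11, Hr4 1 of 4 and Eip63E 1 of 4, and 7 of the list's 21 were those of Eip74EF. Nuclear receptor genes had 10 of 64, all at ftz-f1, Eip75B, EcR and Hr4, which are in the ecdysone list too. Synapse genes stood close to the ecdysone list at 20%, with 3 of 15 peaks. Of these 3, 2 were intergenic on chromosome 4 and given to Cadps only as the nearest start, 87115 and 74652 bp away. The other lay in an intron of elav. The shares of the lists were not read within bins of GC.

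**Figure D5:**
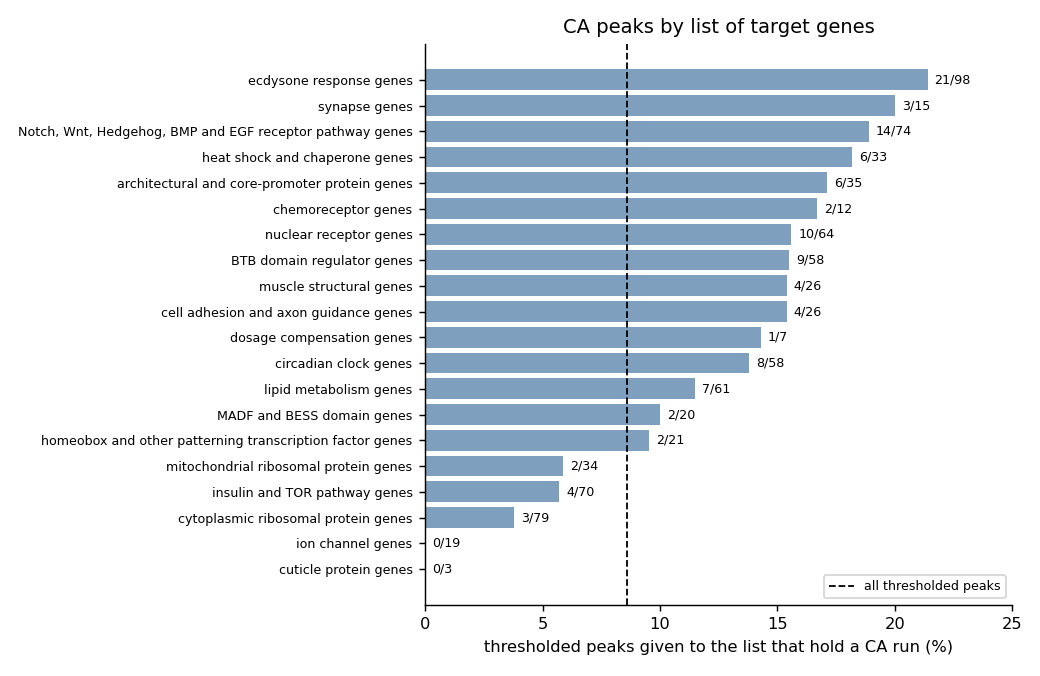
Share of the thresholded peaks given to each gene list that hold a CA run (x axis, percent), with the CA peaks over all peaks of the list beside each bar; the dashed line is the share over all thresholded peaks, 8.61%. The ecdysone response genes reach 21 of 98 and the cytoplasmic ribosomal protein genes 3 of 79; several bars rest on few peaks.

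Genes of signalling pathways had 14 CA peaks of 74 (18.9%) at 10 of 63 genes. They included the ligand genes dpp and spi, the receptor gene Egfr, the transducers drk and Mad, the protease gene kuz, and the transcription factor genes aop and pnt, which act below the EGF receptor, together with numb and Dad. The promoter peak of aop had 259, with 185 in replicate 1 (rank 1430) and 78.2 in replicate 2 (rank 4917). That of numb had 197 from its own summit, while the strongest overlapping peaks had 302 in replicate 1 (rank 503) and 408 in replicate 2 (rank 313). All 14 overlapped replicate 1's leading peaks and 9 replicate 2's, where 91% and 79.7% of all CA peaks did.

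Heat shock and chaperone genes had 6 CA peaks of 33 (18.2%), at Hsp27, Hsp22, Hsp68, Hsc70-3, Hsf and stv. Of all thresholded peaks 8.61% held a CA run. After Hsp27 they were of ordinary strength, with 226 at Hsp22, 225 at Hsp68 and 203 at Hsc70-3, the gene of the endoplasmic reticulum chaperone BiP. All 6 overlapped replicate 1's leading peaks and 3 replicate 2's, where 91% and 79.7% of all CA peaks did. Circadian clock genes had 8 of 58 (13.8%). These were 2 at vri, whose stronger had 553, with 336 and 210.5, 3 at Pdp1, and 1 each at cyc, cwo and nmo. Vri and Pdp1 are the repressor and activator of the second clock loop. The peak of cyc, which encodes the partner of CLOCK, had 326, with 203 and 160.3.

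Lipid metabolism genes had 7 CA peaks of 61 (11.5%), where 8.61% of all thresholded peaks held a run. They were at Acsl (466), FASN1, the fatty acid synthase gene (387), bmm, the triglyceride lipase gene (337), Agpat3, Lpin, Npc1a and ACC. BTB regulator genes had 9 of 58 (15.5%), with BtbVII at 396 and ttk at 264. Architectural and core-promoter genes had 6 of 35 (17.1%), among them Trf2 (275) and psq. Also among them was cg, the gene of Combgap itself, whose promoter peak (187) is shared with mRpS16. In the family of CG12768, the MADF and BESS domain genes, 2 of 20 peaks held a run (10%), near the share of all thresholded peaks. That at the promoter of Mes2 had 623, with 435 in replicate 1 and 193 in replicate 2, and that given to hng3 had 275. The dosage compensation list had 1 of 7 (14.3%), at JIL-1.

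Of the 20 lists, 5 had a CA share below that of all thresholded peaks. Cytoplasmic ribosomal protein genes had a thresholded peak at 67 of 85 genes, yet 3 of their 79 peaks held a run (3.8%), at RpS27, RpS27A (374) and RpS19a (149). Mitochondrial ribosomal protein genes had 2 of 34, and insulin and TOR pathway genes 4 of 70, at foxo, InR, Sik3 and SNF4Agamma. Ion channel genes had none of 19 peaks and cuticle protein genes none of 3. The remaining lists had few peaks each. Muscle and adhesion genes had 4 of 26 each, synapse genes 3 of 15, patterning factor genes 2 of 21 and chemoreceptor genes 2 of 12, so their shares are imprecise.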

How the data were processed

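The authors deposited, for each replicate, for both pooled and as a thresholded list, peaks that carry a signal value of unstated scaling and the −log10 of a q-value, per the file headers. With 30000 peaks apiece, the replicate and pooled lists were made as input for an irreproducible discovery rate threshold and contain background, per the labels. No source used here gives the aligner or the peak caller. The dm3 lists were not used here. Nothing was tested: shares carry 95% Wilson intervals over peaks, signals serve within a list, and the spread is that between the 2 replicates, each with its 6066 peaks of highest signal.

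Summits were read on dm6 (sequence from RefSeq, Release 6, genes from Ensembl release 115), on arms 2L, 2R, 3L, 3R, 4 and X. Other exons are those annotated as neither UTR nor coding sequence. Tiles are consecutive 200 bp windows of these arms. Of the thresholded peaks, 88 share start and end with another and differ in summit (9 CA peaks). Motifs (13) and gene lists (20) were matched by letters and by symbol, and the cuticle list was corrected once after its values were seen, to leave out a cytochrome reductase gene. The run search was tested on simulated data.

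The members and lists were chosen with earlier results of these data known. Named were the targets of the 15 strongest promoter CA peaks found in both lists, the 5 strongest over 2000 bp from a start, the 6 longest runs, up to 4 members of each list and the weakest promoter peak. The 5′ UTR peaks, the genes with several CA peaks and further list members were named after their values were seen. Alternatives were run minima of 10 and 12 bases, a 100 bp window, stricter peak sets, each replicate alone, other promoter and flank distances, other overlap rules, peaks without near neighbours and CA peaks without a GA run; peaks of 45 to 50% GC were added after seeing the data. The calculations used Python 3.11.15 with numpy 2.4.6, pandas 2.3.3, scipy 1.17.1 and matplotlib 3.10.9.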

Additional observations from a re-analysis of the deposited data

How the results depend on the processing

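Of 83 recomputed values, 51 stayed within the spread of the replicates (for the share found in both replicates, within its interval). The values with a replicate left out set this spread and are also counted among the 83. For those values the count is therefore no check. The share of CA peaks, 8.61%, was 4.1% with runs of at least 10 bases, 2.19% with 12, 3.89% in a 100 bp window and 14.3% in peaks of 45 to 50% GC, and from 7.48% to 10.6% with a replicate left out. Flanks at 500 bp held a run in 6.89%, which became 3.36%, 1.9% and 3.61% under the first 3 settings, 5.41% at 1000 bp and 6.59% to 7.67% with a replicate left out. The promoter share was 36.6% at 250 bp and 66.1% at 1000 bp, and 49.6% to 55% with a replicate left out. The intron share was 27.1% with runs of 12, 29.6% in the stronger 3033 peaks, 40.2% and 23.9% at those promoter distances, 29.4% from 45 to 50% GC, and 31.7% to 35.7% with a replicate left out. The X held 13.2% of CA peaks as reported. This became 16.9% and 19.5% with runs of 10 and 12, 9.31% in the stronger 3033, and 13.9% to 15.2% with a replicate left out. The signal ratio was 0.892 to 1.01 with a replicate left out. The share found in both replicates was 66.9% in a 100 bp window, 95.1% in the stronger 3033 peaks, 83.4% at the highest −log10 q-value, 53.4% with overlap of at least 50% of each peak, 56.7% with summits within 100 bp and 97.9% with whole lists. CA peaks with a GA run were 6.02%, 0.752% and 3.39% with runs of 10, of 12 and in 100 bp, 14.6% in the stronger 3033, and 8.37% to 11.5% with a replicate left out. A longer minimum or narrower window counts fewer runs by construction, and the cause of the other changes was not tested. No paired analysis was possible because there is 1 group.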
